A study of Mus musculus with 21 samples.

Results

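The wells described here are 130 fibroblast-named (Fb) wells of mouse embryonic back skin that held the most RNA of the chemokines Cxcl1 and Ccl2 and of the metallothioneins Mt1 and Mt2. They were selected from 1155 Fb wells with at least 3000 UMIs (unique molecular identifiers, the count of RNA molecules), out of 1371 Fb wells and 1967 wells in the table, wells with spike-in RNA alone included. The score of a well was the mean, over those 4 genes, of ln(1 + UMIs per 10000), and the 130 highest scores were taken over all libraries together. They are set against the remaining 1025 Fb wells of the same plates, called other Fb wells. Both sets come from CD1 embryos at embryonic day 15, with no treatment named in the labels. Live cells of the dissociated dorsal skin were sorted by flow cytometry into plates and read by SORT-seq, an automated CEL-Seq2 protocol that counts the 3′ ends of transcripts. The table holds 9 single-cell libraries (plates). Fb wells come from libraries 1 to 7, and each library is used as a replicate. The labels do not say whether the libraries come from separate embryos, so the p-values measure the spread between plates. The submitters used StemID clustering, and whether the Fb name came from it or from the sort gate is not given in the sources used here.

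Cxcl1 and Ccl2 are secreted chemokines that draw neutrophils and monocytes, and fibroblasts make them when cytokines or cell damage switch on the transcription factor NF-kB. Mt1 and Mt2 encode small proteins that bind zinc and copper, and their genes respond to metal ions, oxidative stress and glucocorticoids through the metal-responsive factor MTF-1 and other factors. Enzymatic dissociation of tissue is known to induce immediate early genes and stress genes in single-cell data. The embryonic dermis is also layered, with a Wnt-responsive upper (papillary) layer under the epidermis and a lower (reticular and fat-forming) layer, and both kinds of difference can be read from marker genes.

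The upstream windows of Cxcl1, Cxcl2, Mt1 and Mt2 are shown because they differ in the letters a textbook regulator of each family recognises. No window was available for the score gene Ccl2. Each window is the 250 bases before the annotated start from RefSeq, build GRCm38.p6. For Cxcl1 (chr5:90890995-90891244, + strand) and for its neighbour Cxcl2 (chr5:90903649-90903898, + strand), which was not part of the score, capitals mark a match to the NF-kB consensus. For Mt1 (chr8:94178839-94179088, + strand) and Mt2 (chr8:94172368-94172617, + strand) capitals mark TGCACNC or TGCGCNC, the core of the metal response element.
Cxcl1 upstream: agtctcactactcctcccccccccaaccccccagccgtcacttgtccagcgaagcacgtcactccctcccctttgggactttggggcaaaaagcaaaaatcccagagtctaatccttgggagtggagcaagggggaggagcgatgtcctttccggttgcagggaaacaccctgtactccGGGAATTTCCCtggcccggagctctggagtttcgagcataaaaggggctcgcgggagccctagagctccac
Cxcl2 upstream: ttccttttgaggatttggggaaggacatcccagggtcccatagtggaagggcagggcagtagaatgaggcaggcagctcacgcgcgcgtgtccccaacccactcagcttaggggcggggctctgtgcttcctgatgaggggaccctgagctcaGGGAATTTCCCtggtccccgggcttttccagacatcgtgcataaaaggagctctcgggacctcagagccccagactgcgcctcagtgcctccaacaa
Mt1 upstream: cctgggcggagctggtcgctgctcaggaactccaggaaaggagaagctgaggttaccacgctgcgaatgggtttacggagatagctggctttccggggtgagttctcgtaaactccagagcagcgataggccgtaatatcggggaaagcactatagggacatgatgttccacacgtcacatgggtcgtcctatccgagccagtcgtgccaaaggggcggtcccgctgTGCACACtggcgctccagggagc
Mt2 upstream: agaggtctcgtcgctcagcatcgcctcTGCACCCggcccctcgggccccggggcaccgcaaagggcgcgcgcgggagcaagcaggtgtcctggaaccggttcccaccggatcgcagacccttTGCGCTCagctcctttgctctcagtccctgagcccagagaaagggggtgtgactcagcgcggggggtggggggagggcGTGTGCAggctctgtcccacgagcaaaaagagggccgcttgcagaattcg
Both strands were searched and overlapping matches were merged. The Cxcl1 and Cxcl2 windows hold the same 11 letters, GGGAATTTCCC, at positions -71 to -61 and -97 to -87 from the start. The NF-kB consensus occurs in 7.25% of 32851 mouse windows of the same length, and one of the metal cores in 21.4%. The Mt1 window holds 1 metal core match and the Mt2 window 3. The windows of Zfp36, Igfbp3 and Nfkbia were searched too, and whether matches go with the RNA results was not tested. Zfp36, a named rise below, had 0 matches to either motif, and Igfbp3, another, had 3 metal core matches. Nfkbia, which was not called, had 1 NF-kB match and 1 metal core match. These are matches of letters, and no binding was measured.

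The 4 genes that selected the wells are given as a description, with no test. Per library, the summed high-scoring wells held 1222, 783.2, 961.3, 863.6, 1163, 1050 and 994 CPM of Cxcl1 in libraries 1 to 7 (CPM, the usual scale of UMIs of a gene over all UMIs of the summed wells), against 125.4, 96.3, 102, 88.3, 115.7, 85.8 and 98.2 CPM in other Fb wells. Ccl2 had a median over libraries of 234 CPM (lowest 59.3, highest 314) in high-scoring wells and 13.1 CPM (4.74 to 19.9) in other Fb wells. Mt1 had 276 CPM (238 to 348) in high-scoring wells and 61.8 CPM (54.3 to 69.5) in other Fb wells, and Mt2 had 169 CPM (121 to 260) against 23.6 CPM (15.1 to 32.1). By the way the wells were selected, no library overlapped between the groups for any of the 4 genes.

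Not every selected well held all 4 RNAs. Of the 130 wells, 125 had a UMI of Cxcl1, 119 of Mt1, 105 of Mt2 and 65 of Ccl2, and 43 had UMIs of all 4 genes. The chemokine pair gave more of the score than the metallothionein pair in 79 wells and less in 51 wells. Each library gave between 11 and 29 high-scoring wells, which were 8.79% to 16.6% of its Fb wells. The scores formed no gap at the limit. The lowest selected score was 0.791 and the highest one outside was 0.783, with 30 selected wells within 0.1 above the limit and 31 other Fb wells within 0.1 below it. The median score was 1.06 in high-scoring wells and 0.212 in other Fb wells, of which 212 scored 0. The selection also changed when every well was thinned, in a single random draw, to 3000 UMIs before scoring. Then 90 of the 130 wells were selected again. Depth and the sampling of that draw cannot be told apart there.

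**Figure D1:**
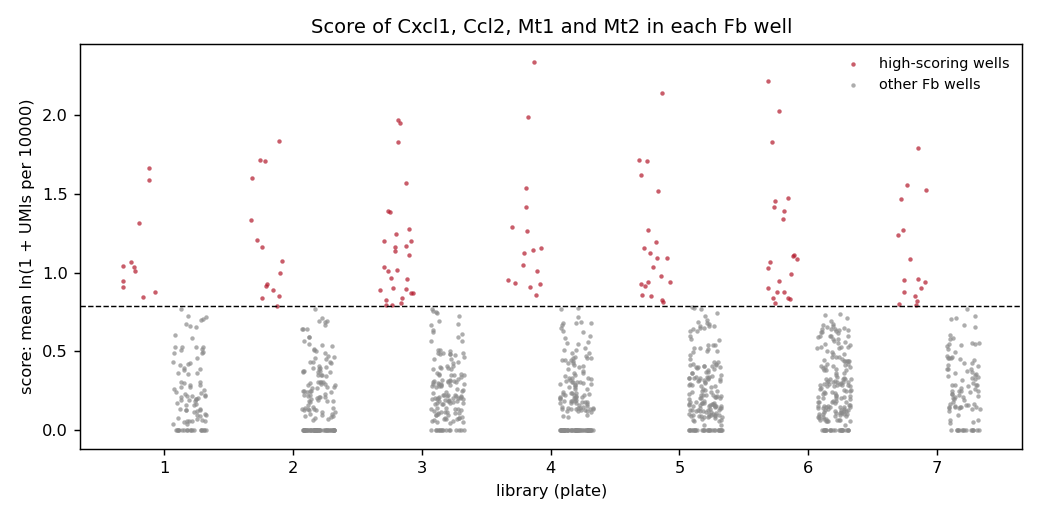
Score of each Fb well (mean of ln(1 + UMIs per 10000) over Cxcl1, Ccl2, Mt1 and Mt2) by library, with the 130 high-scoring wells at the left of each pair of columns in red and the 1025 other Fb wells at the right in grey. The dashed line is the lowest selected score, 0.791, and all 7 libraries have wells on both sides of it without a gap.

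Cells named as dermal condensate, the fibroblast clusters that start hair follicles, were scored the same way in libraries 8 and 9, which hold no Fb wells. There 2 of 114 DC1 wells reached the limit (1.75%, 95% Wilson interval 0.482% to 6.17%), and 0 of 94 DC0 wells and 0 of 65 DC2 wells did, which allows shares of up to 3.93% and 5.58%. Of Fb wells 130 of 1155 did (11.3%), a share fixed in advance, since the limit was set by selecting 130 of them. The intervals of the condensate wells cover counting error only. These condensate wells and the Fb wells come from different plates. Condensate wells of the plates that hold Fb wells were not used here, so no comparison within a plate was made and the difference was not tested.

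The relation of the pairs was described by selecting wells with one pair of genes and measuring the other. The 4 genes were put together with earlier results of these wells known, so their values here are given with no test. In the 130 wells with the most Mt1 and Mt2 alone, Cxcl1 had 542 CPM (404 to 839) in the wells so selected and 164 CPM (136 to 220.4) in the remaining Fb wells (medians over 7 libraries, with the lowest and highest library in brackets). Its log2 fold change of 1.80 (SE 0.10) came with 7 of 7 libraries higher and no overlap. Ccl2 had 89.7 CPM (25.6 to 156) in the wells so selected and 25.1 CPM (15.8 to 59.6) in the remaining Fb wells, with overlap. It was higher in 6 of 7 libraries, with a log2 fold change of 1.56 (SE 0.30). Of all genes tested in this selection, 2.93% of 9560 were higher and 2.68% lower.

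The reverse selection gave the same direction. In the 130 wells with the most Cxcl1 and Ccl2 alone, Mt1 had 198 CPM (132 to 226) in the wells so selected and 65.4 CPM (59.2 to 95.7) in the remaining Fb wells, a log2 fold change of 1.44 (SE 0.12). Mt2 had 94.8 CPM (70.3 to 176) in the wells so selected and 32.6 CPM (19.5 to 44.6) in the remaining Fb wells, a log2 fold change of 1.76 (SE 0.15). Both were higher in 7 of 7 libraries, with no overlap. There 4.09% of 9634 genes were higher and 2.65% lower. The pairs still selected mostly different wells, since 43 wells were in both selections (33.1% of each).

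Within a library, correlations of the 4 genes over single wells were weak to moderate and are given without a test. Pearson r of the ln values was highest for Mt1 with Mt2, with a median over libraries of 0.474 (0.391 to 0.663). It was 0.263 (0.046 to 0.381) for Cxcl1 with Ccl2. Across the pairs it was 0.326 (0.190 to 0.361) for Cxcl1 with Mt2 and 0.219 (0.169 to 0.403) for Cxcl1 with Mt1, and lowest for Ccl2, with 0.140 (-0.001 to 0.268) for Mt2 and 0.122 (0.031 to 0.201) for Mt1. Wells of a library share its depth and chemistry, and n was 108 to 208 wells per library.

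**Figure D2:**
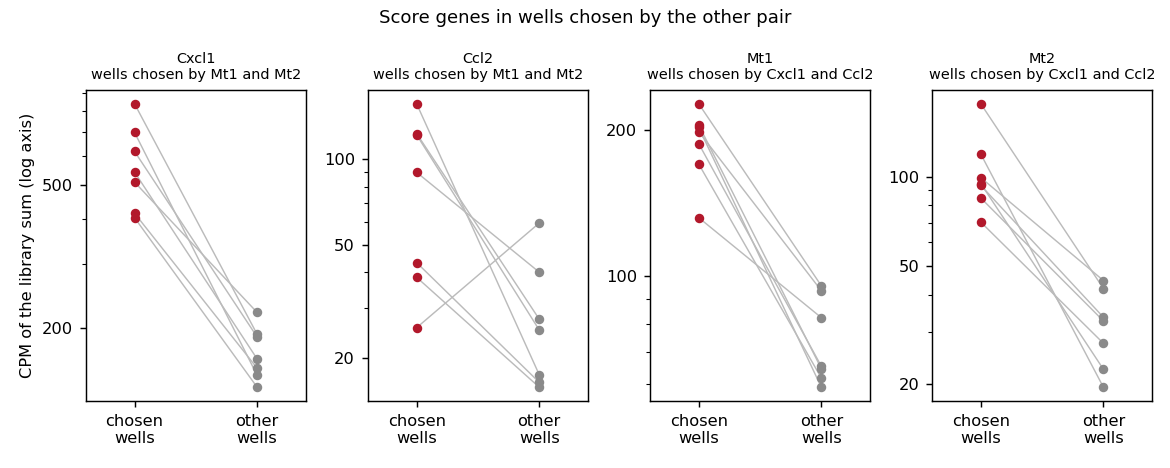
CPM of each score gene (log axis, a separate scale per panel) in wells selected by the other pair of genes, at the left of each panel, and in the remaining Fb wells, at the right. Each line joins the 2 sums of a library. The selected wells were higher in 7 of 7 libraries for Cxcl1, Mt1 and Mt2 and in 6 of 7 for Ccl2.

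All other genes were tested between summed high-scoring wells and summed other Fb wells of each library, with the library as a block and the 4 score genes left out. Of 9661 genes, 479 (4.96%) were higher and 401 (4.15%) lower in high-scoring wells at an adjusted p under 0.05, and the median log2 fold change over all of them was 0.001. All 7 libraries of high-scoring wells lay above all 7 of other Fb wells for 53 genes (0.549%) and below them for 195 genes (2.02%). The 4 libraries that share a sequencing run label gave 354 higher and 256 lower genes of 10237, and the other 3 libraries 109 and 121 of 9576. Unless said otherwise, fold changes below are log2 values of high-scoring over other Fb wells with the SE and adjusted p of edgeR, and levels are medians over 7 libraries. In such sums, more cells with a gene and more RNA per cell cannot be told apart.

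High-scoring wells were fibroblasts by their markers. The 10 fibroblast markers summed to 60068 CPM (47457 to 68231) in high-scoring wells and 51733 CPM (46016 to 56723) in other Fb wells. Col1a1 (0.39, SE 0.06), Col1a2, Col3a1, Dcn, Vim and Pdgfrb were higher and Twist2, which is also an upper dermis gene, was lower. The call of Pdgfrb was lost without any 1 of libraries 2, 3, 5 and 6. Pdgfra, a receptor that marks fibroblasts, had 309 CPM (251 to 336) in high-scoring wells and 317 CPM (308 to 372) in other Fb wells and did not pass (-0.03, SE 0.07). Macrophages are a known source of Ccl2. UMIs of 3 or more macrophage markers were held by 11 of 130 high-scoring wells and 49 of 1025 other Fb wells. At least 1 such UMI was in 48.5% of high-scoring wells and 45.95% of other Fb wells. These shares are at the full depth of each well and were not tested. The 12 macrophage markers in the table summed to 31.2 CPM (14.8 to 43.1) in high-scoring wells and 35.4 CPM (18.9 to 45.5) in other Fb wells, higher in 0 of 7 libraries, and the 1 of them with enough UMIs for a test, Fcer1g, did not pass (-0.09, SE 0.36). Of the lists for other cell classes, Ramp2 of the endothelial list was higher (0.60, SE 0.13), on a list summing to 127 CPM (79.5 to 152) in high-scoring wells and 92.6 CPM (77.8 to 109) in other Fb wells. So was Acta2 of the pericyte and smooth muscle list (0.51, SE 0.15), which summed to 259.6 CPM (159 to 349) in high-scoring wells and 232 CPM (191.8 to 250.3) in other Fb wells, and its call was lost without any 1 of libraries 3 to 7. The mast cell list summed to 67.5 CPM (30.5 to 376) in high-scoring wells and 139 CPM (49.4 to 309.8) in other Fb wells, the epidermis list to 76.8 CPM (21.8 to 569) in high-scoring wells and 127.7 CPM (45.2 to 497) in other Fb wells, the Schwann cell and melanoblast list to 27.3 CPM (8.70 to 49.9) in high-scoring wells and 28.9 CPM (12.5 to 341) in other Fb wells and the skeletal muscle list to 13.1 CPM (6.34 to 43.1) in high-scoring wells and 19.8 CPM (11.96 to 32.8) in other Fb wells. Of these, 4 mast cell, 4 epidermis, 2 Schwann cell and melanoblast and 0 skeletal muscle genes had enough UMIs for a test. None passed in edgeR or DESeq2, and 1 mast cell gene was lower at an unadjusted p under 0.05 in both. Erbb3 and Pax7 were at 0 in high-scoring wells. Wells with UMIs of 3 or more markers of 1 other class were 101 of 130 high-scoring wells (77.7%) and 641 of 1025 other Fb wells (62.5%). A fit without them kept 22 high-scoring wells in 3 libraries and gave 99 higher and 86 lower genes of 7849 tested. In that fit 2 of 24 immediate early genes, 2 of 17 NF-kB genes and 0 of 3 other chemokines were higher. At an unadjusted p under 0.05 in edgeR, 2 of the 3 chemokines were higher. The 6 lists for heat shock, metal and oxidative, glucocorticoid, unfolded protein, hypoxia and p53 genes had 0 calls among 65 genes, with 4 higher and 2 lower at an unadjusted p under 0.05. Of 5 condensate genes 0 were called and 1 was lower at that unadjusted p. In the same fit 17 of 38 matrix genes and 7 of 13 lower dermis genes were higher, and 7 of 13 upper dermis genes and 17 of 30 G2/M genes lower. Any UMI of a marker counted, at the full depth of each well. The part of the marker-holding wells in the results was not tested beyond this fit.

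The named rises are the 14 largest among genes that moved one way in all 7 libraries with an average log2 CPM of at least 5. Called list genes outside these limits that rose more than the largest named rise, Ccl7, Cxcl2, Cxcl5, Heyl, Ptgs2 and Bcl3, are given with their lists. Other genes outside these limits rose too, such as Mylk (1.25, edgeR adjusted p = 0.000162). Zfp36 (chr7:28376784-28380253, GRCm38), which encodes a protein that speeds decay of cytokine mRNAs, had 395 CPM (230.4 to 516) in high-scoring wells and 202 CPM (93.6 to 209.6) in other Fb wells. The libraries did not overlap, with a log2 fold change of 1.20 (SE 0.12, edgeR adjusted p = 1.59e-06). Igfbp3 (chr11:7206086-7213923), a binding protein for insulin-like growth factors, had 87.6 CPM (33.3 to 171) in high-scoring wells and 34.0 CPM (22.2 to 86.7) in other Fb wells, with overlap and a log2 fold change of 1.28 (SE 0.19, edgeR adjusted p = 0.000141). That call was lost when wells were selected after thinning to 3000 UMIs, with 0.49 and an adjusted p of 0.261, the highest of 24 alternatives (lowest 1.53e-15). Nppc, the precursor of C-type natriuretic peptide, had 81.1 CPM (28.3 to 95.7) in high-scoring wells and 33.6 CPM (23.5 to 46.1) in other Fb wells and a log2 fold change of 1.10 (SE 0.18, edgeR adjusted p = 0.000474). Its call was lost there too, with 0.74 and an adjusted p of 0.123, in a range of 5.37e-10 to 0.686 over 25 alternatives, and it was lost in the libraries outside the shared run.

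Csf1, the growth factor of macrophages, had 76.8 CPM (47.9 to 116) in high-scoring wells and 40.5 CPM (30.4 to 51.2) in other Fb wells, with overlap and a log2 fold change of 1.10 (SE 0.18, edgeR adjusted p = 0.000475). The protease gene Adamts1 (chr16:85793827-85803113) had 485 CPM (470.3 to 686) in high-scoring wells and 271 CPM (215 to 326) in other Fb wells, without overlap and with a log2 fold change of 1.03 (SE 0.07, edgeR adjusted p = 6.60e-08). Agtr2 (chrX:21484544-21489164), a receptor of angiotensin II, had 1888 CPM (1211 to 2219) in high-scoring wells and 863 CPM (772 to 1332) in other Fb wells, with overlap and a log2 fold change of 0.98 (SE 0.09, edgeR adjusted p = 1.51e-06). The matricellular gene Thbs2 (chr17:14665500-14694235) had 670.3 CPM (520.2 to 918) in high-scoring wells and 345 CPM (289.9 to 398) in other Fb wells, without overlap (1.06, SE 0.09). The other named rises had log2 fold changes between 0.94 and 1.09. They were Ccdc80, the guidance ligand Slit2, Thbs1, the basement membrane collagen Col4a2, the cAMP phosphodiesterase Pde4b, the metalloprotease Adam19 and the protease inhibitor Serpine2. For 8 of the 14 rises the libraries did not overlap. This held for 31 of the 101 rises that met the limits for naming and for 0.549% of all tested genes.

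The named falls were larger. Ism1 (chr2:139678178-139758581), which encodes a secreted protein, had 2.11 CPM (0 to 7.18) in high-scoring wells and 66.4 CPM (42.9 to 93.0) in other Fb wells. The libraries did not overlap, with a log2 fold change of -3.91 (SE 0.27, edgeR adjusted p = 6.60e-08) on 16 UMIs in high-scoring wells and 1691 in other Fb wells. Runx1 (chr16:92601466-92826149), a transcription factor, had 8.31 CPM (4.35 to 13.5) in high-scoring wells and 50.8 CPM (48.9 to 77.0) in other Fb wells, without overlap and with a log2 fold change of -2.54 (SE 0.21, edgeR adjusted p = 3.32e-07). Its relative Runx3 was lower too (-1.91, SE 0.23). Lef1 (chr3:131110471-131224356), the factor that carries Wnt signals to DNA, had 18.9 CPM (10.6 to 31.8) in high-scoring wells and 79.2 CPM (65.1 to 115) in other Fb wells, without overlap and with a log2 fold change of -1.89 (SE 0.17, edgeR adjusted p = 6.66e-07). Cav1, the coat protein of caveolae, had 67.5 CPM (16.2 to 130.7) in high-scoring wells and 229 CPM (199 to 301) in other Fb wells (-1.83, SE 0.21). The other named falls had log2 fold changes between -2.57 and -1.66. They were the cell adhesion gene Cntn4, thrombomodulin (Thbd), the transcription factor Trps1, the guidance molecule Sema6d, Lix1, the potassium channel Kcnk2, 2900026A02Rik, the adhesion receptor Cd97 and the cytokinesis factor Ect2. For 13 of the 14 falls the libraries did not overlap, and Kcnk2 was the exception. Of the 178 falls that met the limits for naming, 94 did not overlap, and of all tested genes 2.02% lay lower without overlap.

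**Figure D3:**
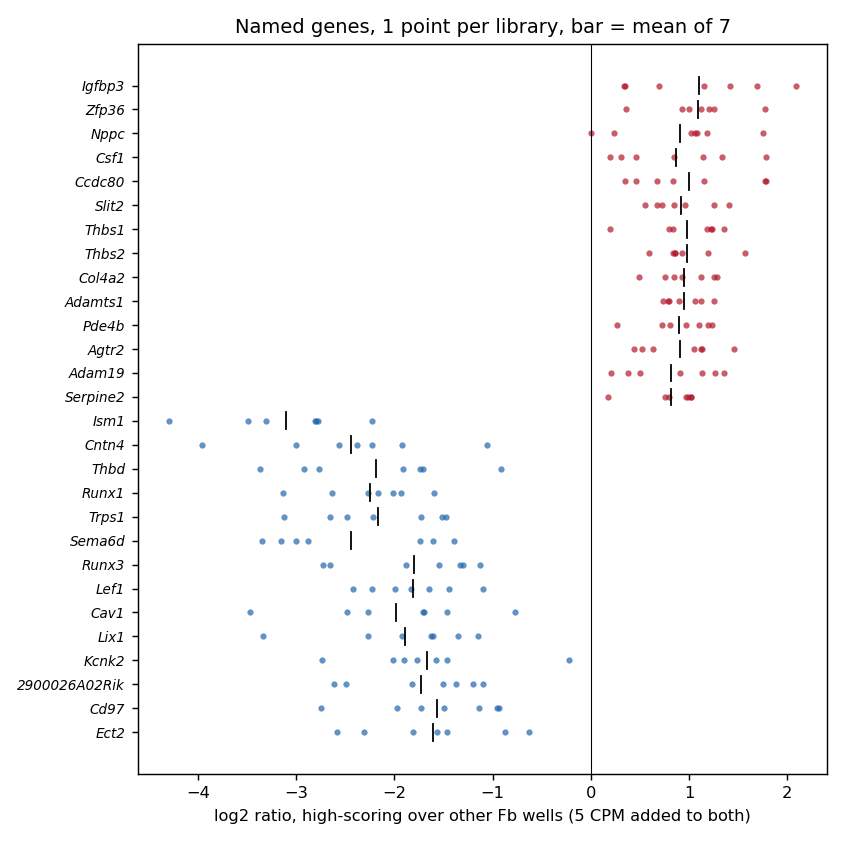
Log2 ratio of CPM, high-scoring over other Fb wells, with 5 CPM added to both, for the 14 named rises and 14 named falls. Each point is a library and the bar is the mean of 7. All points of the rises lie right of 0 and all points of the falls left of it, which the rule for naming required.

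The chemokine list held other members beside the score genes. Of 5 genes with enough UMIs, 4 were higher and none lower, with a median of 2.00. The fit without the marker-holding wells, with 22 high-scoring wells in 3 libraries, called none of the 3 genes it tested. At an unadjusted p under 0.05 in edgeR, 2 of those 3 were higher. Ccl7, a monocyte chemokine encoded beside Ccl2, had 26.1 CPM (1.85 to 52.98) in high-scoring wells and 2.08 CPM (1.17 to 7.29) in other Fb wells. It was higher in 7 of 7 libraries, with overlap and a log2 fold change of 2.96 (SE 0.37, edgeR adjusted p = 2.52e-05). Cxcl2, whose upstream window is shown beside that of Cxcl1, had 24.2 CPM (4.35 to 169) in high-scoring wells and 12.2 CPM (4.32 to 21.2) in other Fb wells. It was higher in 5 of 7 libraries, with overlap and a log2 fold change of 2.31 (SE 0.40, edgeR adjusted p = 0.000779). DESeq2 gave 1.77 with an adjusted p of 0.072, in a range of 6.67e-27 to 0.258 over 23 alternatives. Cxcl5, another neutrophil chemokine, was called (2.00, SE 0.47), and that call was lost without library 5 or library 7. In the 3 libraries outside the shared run its value was -0.91. Cxcl12, the ligand of CXCR4, was higher (0.68, SE 0.14). Cxcl14 had 531 CPM (313 to 592) in high-scoring wells and 501 CPM (327 to 642) in other Fb wells and did not pass (0.05, SE 0.10).

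Of 21 tested genes on the NF-kB and inflammatory list, 10 were higher and none lower, with a median of 0.61. The regulators Bcl3 (1.34, SE 0.28), Cebpd (1.12, SE 0.18), Cebpb (0.89, SE 0.14) and Nfkbiz (0.71, SE 0.12) were higher, as were Birc3, Socs3, Tnfaip6, Icam1 and Csf1. Socs3, an inhibitor of cytokine signalling, had 122 CPM (96.4 to 169.7) in high-scoring wells and 66.3 CPM (42.5 to 94.4) in other Fb wells, with no overlap. Ptgs2, the inducible cyclooxygenase, was called (1.43, SE 0.39), and that call was lost without any 1 of libraries 2, 3, 5 and 7. Several common targets of NF-kB did not pass. Nfkbia, its inhibitor and feedback target, had 174 CPM (88.9 to 340.4) in high-scoring wells and 171 CPM (143 to 306) in other Fb wells (-0.02, SE 0.13). Nfkb1, Tnfaip3, Vcam1, Sod2 and Irf1 had log2 fold changes between -0.14 and 0.25. In the shared run 9 of 21 genes of the list were higher and in the other 3 libraries 5 of 20. Without the marker-holding wells, with 22 high-scoring wells left in 3 libraries, 2 of 17 were higher.

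Immediate early genes, which are switched on within minutes of many stimuli, were higher in part. Of 25 tested, 13 were higher and none lower, with a median of 0.39. Junb had 765 CPM (561 to 943) in high-scoring wells and 477 CPM (412 to 659.6) in other Fb wells, higher in 7 of 7 libraries with overlap and a log2 fold change of 0.75 (SE 0.07, edgeR adjusted p = 6.29e-07). Ier2 had 531 CPM (510.3 to 630.5) in high-scoring wells and 366 CPM (332 to 433) in other Fb wells, without overlap (0.67, SE 0.07). Ier3 (0.91, SE 0.10), Egr1 (0.41, SE 0.06) and Fos (0.39, SE 0.06) were also higher. Jun (0.19, SE 0.06), Jund (0.08, SE 0.07), Atf3 (0.19, SE 0.12), Dusp1 (0.13, SE 0.14) and Klf4 (-0.13, SE 0.19), members of the same list, did not pass. The list summed to 12488 CPM (11330 to 15651) in high-scoring wells and 9953 CPM (8515 to 12562) in other Fb wells, higher in 7 of 7 libraries. In the shared run 13 of 26 genes were higher and in the other 3 libraries 4 of 25. Without the marker-holding wells, with 22 high-scoring wells left in 3 libraries, 2 of 24 were higher.

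The other stress lists held fewer calls by number than the immediate early and NF-kB lists. Of all 9661 tested genes 4.96% were higher. None of 13 heat shock genes passed, with a median of 0.10, and the list summed to 6391 CPM (5726 to 6929) in high-scoring wells and 6643 CPM (5748 to 6956) in other Fb wells. At an unadjusted p under 0.05, 1 of the 13 was higher in edgeR and 1 in DESeq2, and DESeq2 also called 0. Of 14 genes for metal and oxidative responses beside Mt1 and Mt2, Hmox1 (0.84, SE 0.22) and Nfe2l2 (0.50, SE 0.11) were higher. The call of Hmox1 was lost without library 3 or 5. The zinc exporter gene Slc30a1, a target of MTF-1, had 11.1 CPM (4.23 to 23.8) in high-scoring wells and 11.7 CPM (10.9 to 15.4) in other Fb wells and did not pass (0.18, SE 0.29). Of 8 glucocorticoid-responsive genes, Sgk1 (1.20, SE 0.18), Cebpd and Klf9 (0.71, SE 0.13) were higher. Cebpd is also on the NF-kB and inflammatory list. Fkbp5 (-0.00, SE 0.23), Per1 (0.07, SE 0.16) and Tsc22d3 (0.45, SE 0.25), common glucocorticoid targets, did not pass. Of 12 unfolded protein response genes, Hspa5 (0.35, SE 0.07), Calr (0.30, SE 0.06), Hsp90b1 (0.26, SE 0.06) and Ddit4 (0.80, SE 0.20) were higher. The call of Ddit4 was lost without library 5. Of 16 hypoxia and glycolysis genes Vegfa (0.58, SE 0.13) was higher. Of 9 p53 targets Btg2 (0.55, SE 0.09) was higher, which is also on the immediate early list.

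**Figure D4:**
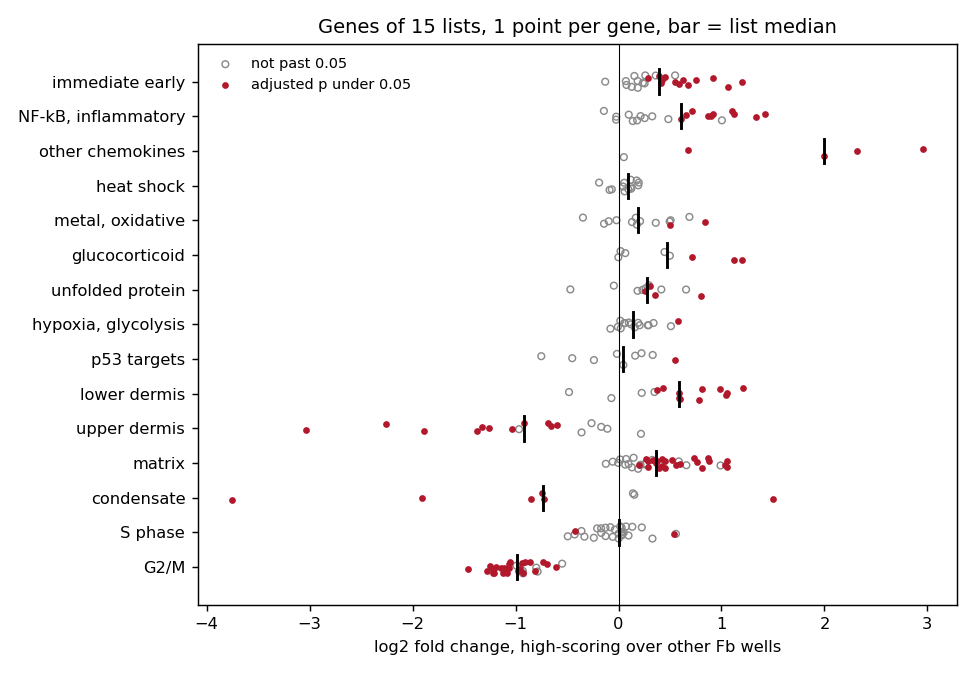
Log2 fold change of each tested gene of 15 lists, high-scoring over other Fb wells, filled where the adjusted p was under 0.05 and open where not, with the list median as a bar. The medians of the upper dermis and G2/M lists lie left of 0 and those of the lower dermis, matrix, NF-kB and chemokine lists right of it, while those of the heat shock and S phase lists are 0.10 and 0.00.

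High-scoring wells carried more RNA of lower dermis genes and less of upper dermis genes. Of 17 upper dermis genes none was higher and 11 were lower, with a median of -0.91. Of 15 lower dermis genes 11 were higher and none lower, with a median of 0.59. Beside Lef1 and Trps1, the falls included the Wnt feedback inhibitors Notum (-3.04, SE 0.49, on 5 UMIs in high-scoring wells), Wif1 (-1.38, SE 0.16), Dkk1 (-1.32, SE 0.28) and Nkd1 (-1.03, SE 0.10). Crabp1, a retinoic acid binding protein abundant in the upper dermis, had 1398 CPM (957 to 2118) in high-scoring wells and 2483 CPM (1967 to 2699) in other Fb wells, lower in 7 of 7 libraries with overlap and a log2 fold change of -0.60 (SE 0.08, edgeR adjusted p = 7.16e-05). The rises included the fat cell factors Pparg (1.21, SE 0.22) and Cebpa (1.05, SE 0.22), the lipase Lpl (0.81, SE 0.12) and the imprinted gene Mest (0.78, SE 0.09). Pparg had 40.2 CPM (24.1 to 78.2) in high-scoring wells and 19.4 CPM (13.8 to 22.7) in other Fb wells, without overlap. Dlk1, an inhibitor of fat cell formation, had 5311 CPM (3073 to 5794) in high-scoring wells and 3401 CPM (2468 to 4287) in other Fb wells, higher in 7 of 7 libraries with overlap and a log2 fold change of 0.58 (SE 0.06, edgeR adjusted p = 7.43e-06). Cd34 was called (0.43, SE 0.13), and that call was lost without any 1 of libraries 1, 2, 3, 5 and 6. Of 10 tested genes on a fascia list, 2 were higher and none lower, with a median of 0.10. These were Dpt and Cd34, which are also on the lower dermis list. The fascia list summed to 1683 CPM (879.5 to 1992) in high-scoring wells and 1115 CPM (1006 to 1412) in other Fb wells, higher in 5 of 7 libraries. In the shared run 11 upper genes were lower and 12 lower genes higher, and in the other 3 libraries 7 and 7.

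Matrix genes were also higher. Of 40 tested, 23 were higher and none lower, with a median of 0.37, and they summed to 86031 CPM (69824 to 97293) in high-scoring wells and 71284 CPM (62064 to 78158) in other Fb wells. Basement membrane collagen was among the larger rises. Col4a1 had 594 CPM (520.2 to 739.7) in high-scoring wells and 338 CPM (281 to 414) in other Fb wells, and Col4a2 had 427 CPM (313 to 525.5) in high-scoring wells and 236 CPM (150.2 to 247) in other Fb wells, both without overlap (0.87, SE 0.08 and 1.03, SE 0.09). The proteoglycan Vcan (0.88, SE 0.08), the inhibitor Timp3 (0.81, SE 0.13), Col12a1 (0.76, SE 0.10) and the collagen crosslinking enzyme Lox (0.74, SE 0.08) were higher too. Lum (-0.12, SE 0.05), Mmp2 (-0.06, SE 0.10) and Eln (0.06, SE 0.12) did not pass.

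Of 8 condensate genes 5 were lower and Heyl (1.503, SE 0.34), a Notch target, was higher. Smoc1 (-3.75, SE 0.49) had 4 UMIs over all high-scoring wells and 379 in other Fb wells. The signals Bmp4 (-0.85, SE 0.19) and Bmp7 (-0.74, SE 0.20) and the Hedgehog target Gli1 (-0.72, SE 0.15) were lower. Hey1 was lower as well (-1.91, SE 0.50), and its call was lost without library 5 or 6. In the other 3 libraries 1 of the 8 was lower and none higher.

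Genes of the G2 and M phases were lower, and few of S phase were called. Of 30 G2/M genes 24 were lower and none higher, with a median of -0.98. Their sum was 3242 CPM (759.6 to 4180) in high-scoring wells and 4824 CPM (4516 to 5768) in other Fb wells, and the libraries did not overlap. Mki67, a proliferation marker, had 270.2 CPM (56.0 to 399.6) in high-scoring wells and 454 CPM (288 to 516) in other Fb wells, lower in 7 of 7 libraries with overlap and a log2 fold change of -0.97 (SE 0.27, edgeR adjusted p = 0.0261). Cenpe (-1.46, SE 0.28) and Kif11 (-1.22, SE 0.24), both needed for the spindle, were lower. DESeq2 called 14 of the 30, edgeR without the library block 15, and leaving out 1 library left 17 to 28. Of 29 S phase genes, Ccne1 (0.54, SE 0.12) was higher and Slbp (-0.43, SE 0.09) lower, with a median of 0.00. Of the G2/M genes 20 were lower in wells selected by Mt1 and Mt2 alone and none in wells selected by Cxcl1 and Ccl2 alone, with medians of -0.74 and -0.65. At an unadjusted p under 0.05, 16 of the 30 were lower in the second selection in edgeR. Of the immediate early genes 8 and 15 of 25 were higher in these selections. They share wells, and the difference between them was not tested.

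The position in the dermis and the immediate early genes were then read in single wells. Each well was scored by the mean of ln(1 + UMIs per 10000) over the lower dermis list minus that over the upper dermis list, and by the same mean over the immediate early list. These splits at the median of all 1155 wells, and the next comparisons of wells, were chosen after the gene results were known. On the lower side lay 118 high-scoring wells (90.8%) and 459 other Fb wells (44.8%). By library the share was 90.9% (81.25% to 100%) of high-scoring wells and 44.6% (39.7% to 48.5%) of other Fb wells, a mean difference of 46.6 ± 6.12 percentage points (SD over 7 libraries). It was higher in 7 of 7 libraries. Above the median of the immediate early score lay 75.0% (54.5% to 90.9%) of high-scoring wells and 45.0% (39.4% to 57.2%) of other Fb wells by library. The mean difference was 27.3 ± 14.95 points (SD over 7 libraries), higher in 7 of 7 libraries. At or below the median of the summed S phase and G2/M scores lay 60.0% (45.5% to 81.8%) of high-scoring wells and 49.3% (44.3% to 51.7%) of other Fb wells, a mean difference of 13.2 ± 14.1 points (SD over 7 libraries), higher in 6 of 7. Since the lists had been tested in the same wells, these shares are a description, with no test.

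Along the axis from upper to lower, the 1155 wells were divided into 5 bins of 231 wells each, which held 2, 1, 23, 61 and 43 high-scoring wells. Bin 4 held 26.4% and bin 5, the most lower, 18.6%. By library these shares were 29.2% (10.5% to 34.1%) and 18.5% (11.5% to 28%), with overlap. With both splits crossed, 91 of 353 wells on the lower side with high immediate early genes were high-scoring (25.8%), and 27 of 224 on the lower side with low immediate early genes (12.1%). On the upper side they were 8 of 224 wells with high immediate early genes (3.57%) and 4 of 354 with low (1.13%). The median shares over libraries, in the same order, were 26.2%, 13.2%, 3.70% and 0%.

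**Figure D5:**
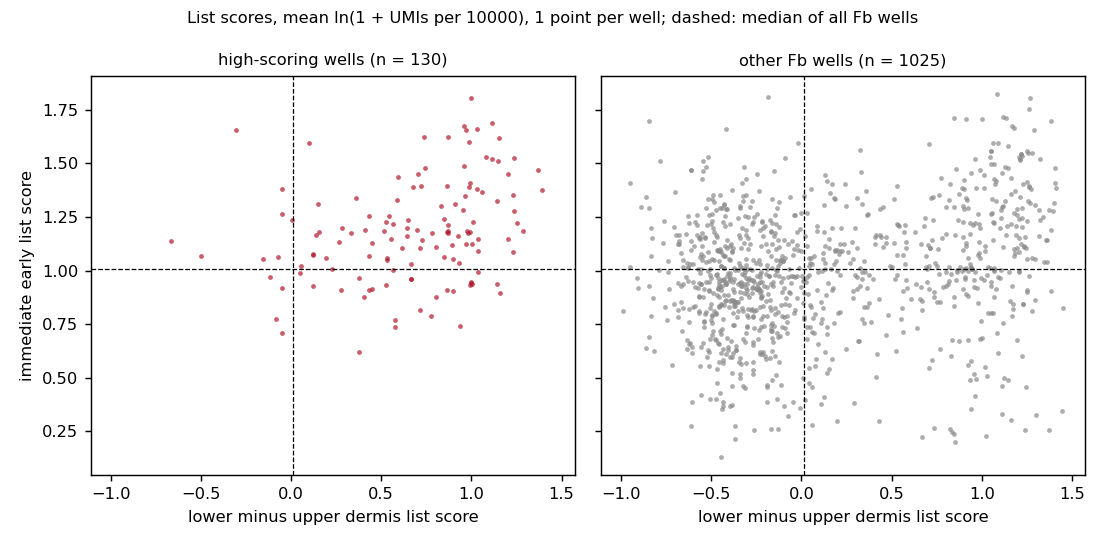
Lower minus upper dermis list score (horizontal) and immediate early list score (vertical) of each well, both as differences or means of ln(1 + UMIs per 10000), for the 130 high-scoring wells at the left and the 1025 other Fb wells at the right. Dashed lines are the medians of all 1155 wells, and 91 of the 130 high-scoring wells lie above and right of both.

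The scores were also related below the limit. Over the 1025 other Fb wells, Spearman's rho of the 4-gene score with the lower minus upper score had a median over libraries of 0.288 (0.239 to 0.395). With the immediate early score it was 0.261 (0.116 to 0.323) and with UMIs per well 0.170 (-0.109 to 0.382). These are descriptions of wells that share a plate and a depth. In the 130 high-scoring wells, the next 130 by rank and the remaining 895 wells, Agtr2 had 1888, 1173 and 765.5 CPM (medians over libraries). Zfp36 had 395, 252 and 183 CPM, and Lef1 18.9, 36.9 and 86.7 CPM. The median of the next 130 wells lay between those of the other sets for 13 of the 14 named rises and all 14 named falls. Igfbp3 was the exception, with 87.6, 28.7 and 34.6 CPM. Cxcl2, which is not among these, had 24.2, 29.4 and 8.13 CPM.

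Within the wells of the lower side, fewer genes were called. The 118 high-scoring and 459 other wells gave 32 higher genes (0.373% of 8588) and 37 lower ones (0.431%). The dermis lists made the split, so no count over them is given there. None of the 19 NF-kB genes tested passed, with a median of 0.40. At an unadjusted p under 0.05, 12 of the 19 were higher in edgeR and none lower. Of 25 immediate early genes 8 were higher, among them Zfp36 (0.90, SE 0.12), Junb (0.65, SE 0.07) and Ier2 (0.63, SE 0.07), and Klf4 was lower. The genes named over all wells were read again in this part of the same wells, which is no separate evidence. Of the 12 named rises off the dermis lists 4 passed (Zfp36, Col4a2, Adamts1 and Serpine2), and of the 7 named falls off those lists that could be tested Ect2 passed. Cxcl2 was higher there as well (2.19, SE 0.38). In lower side wells with the most Mt1 and Mt2, the log2 fold changes were 1.32 (SE 0.12) for Cxcl1 and 1.35 (SE 0.37) for Ccl2. In those with the most Cxcl1 and Ccl2 they were 1.25 (SE 0.14) for Mt1 and 1.40 (SE 0.18) for Mt2. These are again given with no test.

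Among the changes within the lower side, named after their values were seen, was Phlda1, with 92.6 CPM (60.1 to 154) in high-scoring wells and 50.4 CPM (14.7 to 82.1) in other lower side wells, higher in 7 of 7 libraries with overlap and a log2 fold change of 1.00 (SE 0.17, edgeR adjusted p = 0.00493). The growth arrest gene Gadd45b (0.71, SE 0.16) and the endothelin receptor Ednra (0.71, SE 0.16) were higher. Ednra had not passed over all wells (-0.24). C1qtnf3 had 98.0 CPM (12.7 to 162) in high-scoring wells and 219 CPM (130.2 to 262) in other lower side wells, lower in 7 of 7 libraries with overlap and a log2 fold change of -1.14 (SE 0.16, edgeR adjusted p = 0.000819). Pamr1 (-1.95, SE 0.39) and Kcnj8 (-1.25, SE 0.27) were lower too. C1qtnf3, Pamr1 and Kcnj8 had not passed over all wells. Cenpe (-1.29, SE 0.29), Casc5 (-1.39, SE 0.27), Depdc1a (-1.21, SE 0.25) and Spc25 (-1.16, SE 0.23) were also lower there, as they were over all wells. Of 30 G2/M genes on the lower side 3 were lower and none higher, with a median of -0.85 against -0.98 over all wells. Of all genes tested there 0.431% were lower.

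In wells at or below the median of the immediate early score, only libraries 1, 2 and 3 had 5 or more high-scoring wells, 19 in all against 213 other Fb wells. There 38 genes were higher (0.492% of 7730) and 17 lower (0.22%). Lower dermis genes were higher in 7 of 12 tested, with a median of 0.96. Among 14 upper dermis genes tested, Lef1 (-2.46, SE 0.55) and Twist2 (-0.87, SE 0.21) were lower. The rest of these upper genes did not pass, and the median of the upper list was -0.81. Of the 13 named rises off the immediate early list 6 passed, among them Igfbp3 (2.89, SE 0.43), Thbs2 (1.41, SE 0.22) and Agtr2 (1.36, SE 0.19), and of the 14 named falls 7. They were named over all wells, which include those of this fit, so these counts are no separate evidence. In wells with a low cell cycle score, 81 high-scoring and 497 other, 9 of 13 upper dermis genes were lower and 5 of 13 lower dermis genes higher. There 1.24% of 7883 genes were higher and 1.22% lower.

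The median UMIs per well were 33116 (13140 to 39417) in high-scoring wells and 27434 (12077 to 32659) in other Fb wells, higher in 6 of 7 libraries (exact permutation test over libraries, adjusted p over 5 measures = 0.0781). The spike-in share of molecules was 1.12% (0.882% to 2.50%) in high-scoring wells and 1.35% (1.14% to 3.02%) in other Fb wells, lower in 7 of 7 libraries (exact permutation, adjusted p = 0.0391). After thinning to 3000 UMIs, high-scoring wells held 1553 genes (1510 to 1588) and other Fb wells 1594 (1536 to 1610), again lower in 7 of 7 libraries with the same adjusted p. The share of ribosomal protein UMIs was 9.16% (7.97% to 10.5%) in high-scoring wells and 9.69% (8.70% to 10.96%) in other Fb wells, lower in 6 of 7 libraries (exact permutation, adjusted p = 0.109). The mitochondrial share, from the 37 rows on the mitochondrial chromosome, was 6.57% (5.38% to 7.53%) in high-scoring wells and 6.07% (5.13% to 6.71%) in other Fb wells, higher in 5 of 7 libraries (exact permutation, adjusted p = 0.0781). The part of these measures in the gene results was not tested. With every well thinned to 3000 UMIs, 122 genes were higher and 90 lower of the 3480 that still had enough UMIs, and 30 of the 43 named genes tested there passed in the same direction. Those genes had been named in the same wells before thinning.

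By place on the plate, high-scoring wells were 59 of 523 Fb wells in the later numbered wells (11.3%) and 71 of 632 in the earlier numbered ones (11.2%). The mean difference over 7 libraries was 0.638 ± 6.92 percentage points (SD, exact two-sided permutation p = 0.828, smallest possible 0.0156), within the spread between libraries.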

How the data were processed

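The table the authors deposited gives expected counts, UMIs per gene and well adjusted for chance collisions among 4096 barcodes. This was read from the values, of which 0 of 7105085 above 0 lay over 0.005 off that formula. The submitters' processing notes name mm10, and BWA 0.6.2-r126, Bowtie2, TopHat2 2.0.3 and Cufflinks 2.1.1 without saying what each did. Values were rounded to whole numbers before summing (13.6% of those above 0 were not whole), since whole counts had been assumed. The Fb wells of a library held 2372569 to 6033442 UMIs. Not used here were 228 columns, 144 of them wells with spike-in RNA alone and 84 condensate wells of libraries that also hold Fb wells, and the 12 bulk samples.

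UMIs were summed per library over high-scoring and other Fb wells, where each had at least 5 wells. The sums were tested with edgeR 4.0.16 (TMM, filterByExpr, glmQLFit, glmQLFTest, library as block, Benjamini-Hochberg at 0.05) in R 4.3.3 with limma 3.58.1. Wells were read with Python 3.11.15, numpy 2.4.6, pandas 2.3.3 and scipy 1.17.1. The edgeR script was tested on simulated data. The library pairs the 2 sums, since both come from 1 plate. Single values were tested by exact sign permutation over 7 libraries, two-sided. Named genes are the 14 largest rises and 14 largest falls among genes that passed with a log2 fold change of at least 0.5 in size, 1 direction in all 7 libraries and an average log2 CPM of at least 5. Up to 4 called members of each list are named too, and other list members are given by value. The wells, lists and tests were chosen with earlier results of these data known. Alternatives changed scaling, tool (DESeq2 1.42.0), filter, block, libraries, depth and the number of selected wells. Doublets were not called. Overlapping and antisense genes may share reads. Gene positions are from GENCODE M21 (GRCm38), where Cd97 had no match.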

Additional observations from a re-analysis of the deposited data

Results flagged for a closer look

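In 3 cases the value of a single library stood far from the other 6, among 35 sets of 7 libraries examined, of which chance flags about 1 in 20. The log2 ratio of Serpine2 in library 7 was 0.176 (87.2 CPM in high-scoring wells and 76.6 CPM in other Fb wells), while the other libraries lay between 0.75 and 1.02. The difference in the median mitochondrial share was 1.47 percentage points in library 1 (7.53% in high-scoring wells and 6.07% in other Fb wells), against -0.055 to 0.402 points in the other libraries. The difference in the median ribosomal protein share was 0.861 points in library 7 (9.95% in high-scoring wells and 9.09% in other Fb wells), against -1.27 to -0.424 points elsewhere.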

How the results depend on the processing

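The counts of 479 higher and 401 lower genes stayed within 1.5 times under RLE scaling, DESeq2 (437 and 337), no replicate block (373 and 326), selection within each library, 260 wells, wells of at least 10000 UMIs and other minimums of wells. Leaving out 1 library gave 338 to 473 higher and 280 to 406 lower genes. They changed more with no filter on low counts (444 higher, 650 lower, 18085 tested), in the shared run alone (354 and 256), in the other 3 libraries (109 and 121), with wells thinned to 3000 UMIs (122 and 90), with selection on thinned wells (309 and 259), with 65 wells (229 and 221, 6 libraries fitted) and without wells holding 3 markers of another cell class (99 and 86). That last rule removed 101 of the 130 high-scoring wells and left 3 libraries. Lower side wells (32 and 37), wells low in immediate early genes (38 and 17) and low-cycling wells (98 and 96) were chosen after seeing the data. Their causes were not tested, beyond the fewer wells, libraries or genes. Directions turned for Cxcl5 (-0.91) in the other 3 libraries; for Acta2 (-0.40), Btg2 (-0.037), Nfe2l2 (-0.036) and Nr4a2 (-1.02) without marker-holding wells; and for Acta2 (-0.025), Bmp4 (0.16), Cd34 (-0.20), Col1a2 (-0.021) and Dpt (-0.19) in lower side wells, where Cd34 and Dpt are on a list that made the split. Ccl2 in wells selected by Mt1 and Mt2 had 1.35 in lower side wells. Without 1 library, Cxcl1 (1.70 to 1.89) and Ccl2 (1.33 to 1.96) there, and Mt1 (1.37 to 1.54) and Mt2 (1.66 to 1.86) in the reverse selection, kept their direction. No replicate block ended the calls of Acta2, Cd34, Col1a1 and Hsp90b1 among 71 named genes. With means in place of medians, the differences in UMIs (4141), mitochondrial share (0.283 points) and ribosomal share (-0.634 points) passed. Comparing only the first and last wells of the plate, in 3 equal parts, gave -0.985 points over 6 libraries.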
